A study of Rattus norvegicus with 45 samples.

Results

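Livers of rats given triadimefon for 6 h were compared with control livers of the same time, 5 arrays against 5, and genes and their functions were read across all probe sets. The 10 arrays were taken by their sample titles from the 45 of the series, which holds triadimefon, myclobutanil and control livers at 6 h, 24 h and 14 days, 5 arrays in each of 9 groups. The animals were adult male rats of the Sprague-Dawley strain, aged 10 weeks, that received the compounds by gavage, and their liver RNA was hybridised to Affymetrix Rat Genome 230 2.0 arrays. For the series as a whole, daily doses of 175 mg/kg of triadimefon and 225 mg/kg of myclobutanil are stated. The labels do not say what the controls were given. They also disagree on numbers, since the series text counts 15 livers, the labelling protocol 3 rats for each group and the titles 5 arrays for each. The titles were followed, so a p-value measures the spread between arrays, which may share animals.

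Triadimefon is a triazole fungicide, made to block the fungal P450 that demethylates sterol precursors. In rodent liver many triazoles activate the nuclear receptors CAR and PXR, which switch on P450s of the CYP2B and CYP3A kind together with the haem synthesis and the electron supply that these enzymes need. These P450s are membrane proteins of the endoplasmic reticulum. That compartment answers a load of unfolded protein with the unfolded protein response, which raises its chaperones and folding enzymes, and the cytosol has a separate programme run by heat shock factor 1.

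Each value is a deposited score per probe set and array, on a log-type scale centred near 0 whose base is not stated. Differences are therefore given in score units, as triadimefon minus control, and no fold is given. Among the 10 arrays, the 99th percentile of the scores ran between 2.82 and 3.07 on triadimefon arrays and between 2.69 and 3.24 on control arrays. The brightest 1% of probe sets deviated on average from their mean over all 45 arrays by -0.25 to 0.054 on triadimefon arrays and by -0.37 to 0.31 on control arrays, with control array 1 the dimmest and control arrays 2 and 3 the brightest. The names of the array files end in 11, 12, 21 or 31, with no stated meaning. Triadimefon arrays 1, 2 and 3 end in 12 and arrays 4 and 5 in 11, while control arrays 1, 4 and 5 end in 11, array 2 in 31 and array 3 in 21. No control array of 6 h ends in 12, so for those 3 triadimefon arrays the ending and the treatment cannot be told apart at this time. Values on the arrays of ending 11 alone, 2 triadimefon against 3 control arrays, are given for the calls named by the rule stated under the processing. They are given for few of the calls named after their values were seen.

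Most of the transcripts called between triadimefon and control livers at 6 h were higher with triadimefon. A call below means an adjusted p under 0.05 in limma, adjusted over all probe sets, and "rose" and "fell" are used of calls only. Of 31042 probe sets 229 rose (0.738%) and 55 fell (0.177%), and 237 of these 284 had triadimefon and control values that did not overlap, against 790 (2.54%) of all probe sets. With each gene read from its brightest probe set, 143 of 14217 genes rose (1.01%), 30 fell (0.211%) and 419 did not overlap (2.95%). The median absolute difference of the called probe sets was 0.20, and 2 of them moved by at least 1 score unit. An unadjusted p under 0.05 was reached by 3534 probe sets. The call of 62 of the 173 genes held whichever single array was left out, 49 of them higher and 13 lower. All 173 kept their direction on the arrays of ending 11 alone, where 5 were called. These arrays are among those that made the calls. In 143 of the 173 genes, higher or lower, the groups did not overlap, so their direction could not have reversed there. After quantile normalization, which equalises the arrays' bright ends, the counts were 530 higher and 298 lower, and all 173 genes were called again. Without triadimefon array 1 the counts were 98 and 32, and without triadimefon array 2 they were 109 and 27. Leaving out control array 1 gave 126 and 47, and leaving out control array 3 gave 129 and 45.

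**Figure D1:**
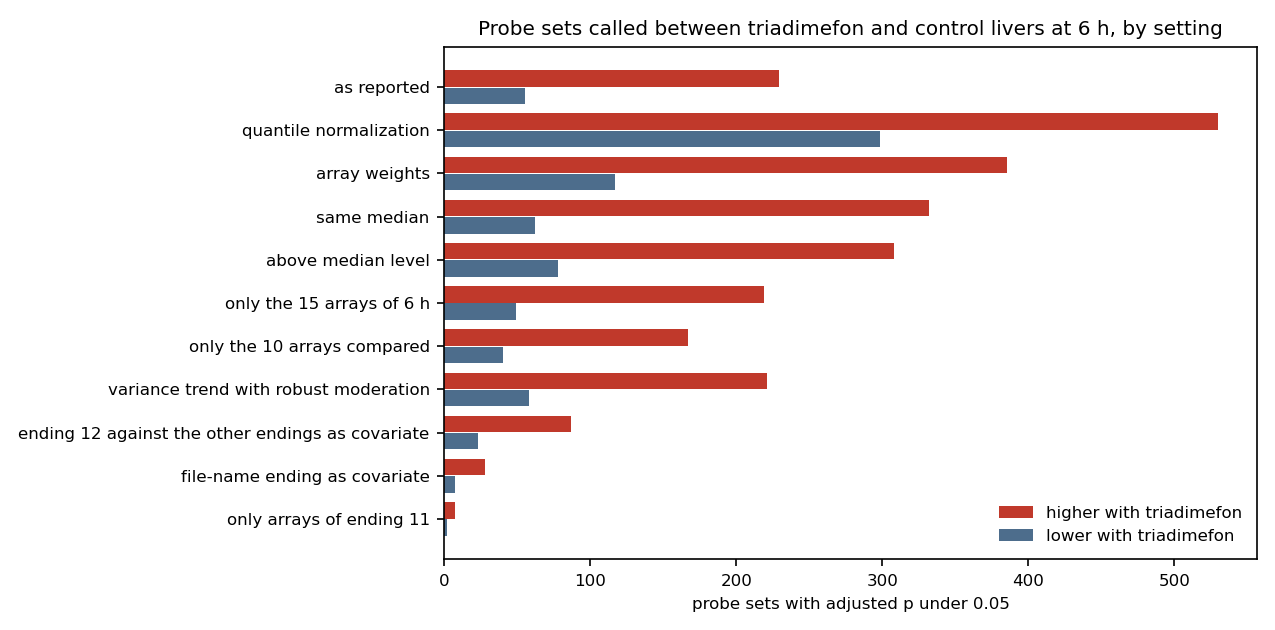
Number of probe sets with an adjusted p under 0.05 that were higher (red) or lower (blue) in triadimefon than in control livers at 6 h, for the values as reported and for 10 alternative settings. The counts run from 530 higher and 298 lower after quantile normalization to 7 higher and 2 lower on the 2 triadimefon and 3 control arrays of ending 11.

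The arrays read as liver by their markers. All 11 measured hepatocyte markers lay at or above the 98.1st percentile of the probe sets' mean scores. Albumin (Alb) had a mean score of 4.88 over the 45 arrays. None of 106 markers of hepatocytes and 7 other cell types passed the test. In whole liver, fewer cells of a type and less RNA per cell cannot be told apart.

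The largest difference lay in a CYP2B probe set, and beside it the first enzyme of haem synthesis and the P450 reductase rose. The CYP2B probe set is listed with both Cyp2b1 and Cyp2b2, the near-identical phenobarbital-inducible P450s of rat liver, and its signal cannot be assigned to either. Its scores were 3.73, 3.74, 3.87, 3.25 and 3.68 on triadimefon arrays 1 to 5, against 1.10, 0.81, 1.22, 1.86 and 1.37 on control arrays 1 to 5. Every triadimefon array stood far above the highest control array, and the difference was 2.38 ± 0.21 (adjusted p = 1.8e-09). It was 2.02 (adjusted p = 0.0048) on the arrays of ending 11. Alas1, the rate-limiting enzyme of haem synthesis in liver, had scores of 2.95, 3.11, 3.13, 2.84 and 3.02 in triadimefon livers and 1.76, 2.24, 2.66, 2.37 and 1.99 in control livers. The groups did not overlap, and the control arrays were the more scattered. The difference was 0.81 ± 0.17 (adjusted p = 0.0086), and without control array 1 it was 0.69 (adjusted p = 0.051). Por, which hands electrons to microsomal P450s, scored 2.15, 2.33, 2.47, 2.35 and 2.25 with triadimefon and 1.27, 1.65, 2.001, 1.73 and 1.61 in controls. The groups did not overlap, with a difference of 0.66 ± 0.17 (adjusted p = 0.042), but this call was lost in 9 of the 10 repeats that left out 1 array, all but that without control array 3, with a difference between 0.56 and 0.70 in those repeats and an adjusted p of up to 0.16. Alas1 differed by 0.89 (adjusted p = 0.39) and Por by 0.77 (adjusted p = 0.54) on the arrays of ending 11.

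The third called member of the 27 measured haem and electron supply genes was Slc25a38, the mitochondrial glycine carrier, with a difference of 0.12 ± 0.032 (adjusted p = 0.044) and overlapping groups. It was 0.075 (adjusted p = 0.95) on the arrays of ending 11, and its call was lost without triadimefon arrays 1, 2, 3 or 5 or control arrays 1, 3 or 4, with a difference between 0.10 and 0.13 in those repeats and an adjusted p of up to 0.19. No gene of this list fell, and the haem oxygenase Hmox1 differed by -0.013 (adjusted p = 0.97). No member passed among 32 measured P450s of families 1 to 3, a list that leaves out the probe set shared by Cyp2b1 and Cyp2b2. Their median difference was -0.007, against 0.001 over all genes. Cyp3a23-3a1, an inducible CYP3A of rat liver, scored 3.82, 3.70, 3.91, 3.45 and 3.80 with triadimefon and 3.21, 3.70, 3.72, 2.98 and 3.18 in controls. Its groups overlapped and the difference was 0.38 ± 0.15 (adjusted p = 0.26), but after quantile normalization it was 0.45 (adjusted p = 4.8e-05). Cyp1a1, the marker P450 of the aryl hydrocarbon receptor, differed by 0.19 (adjusted p = 0.22). Its groups did not overlap, though only by a small margin, with a lowest triadimefon score of -0.080 and a highest control score of -0.083. Triadimefon arrays 4 and 5, of ending 11, scored 0.26 and 0.19, and the other triadimefon arrays -0.080 to -0.040. The male-specific Cyp2c11 differed by -0.084 (adjusted p = 0.92). The receptors CAR (Nr1i3) and PXR (Nr1i2) themselves differed by -0.11 (adjusted p = 0.76) and 0.11 (adjusted p = 0.68). None of 65 conjugating and other drug-handling enzymes was called.

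Of 31 measured transporters 1 rose and 1 fell. Abcb1a, which encodes P-glycoprotein, the efflux pump of the bile canaliculus, had scores of 0.53, 0.49, 0.59, 0.61 and 0.41 in triadimefon livers and -0.012, 0.13, -0.048, 0.24 and 0.13 in control livers. All 5 triadimefon values lay above all control values, with a difference of 0.44 ± 0.092 (adjusted p = 0.0082). Slc13a4, a sodium-coupled sulphate carrier, had scores of 1.10, 0.81, 1.01, 1.09 and 1.05 with triadimefon and 1.56, 1.58, 1.35, 1.32 and 1.61 without. Here the triadimefon values all lay below, with a difference of -0.47 ± 0.095 (adjusted p = 0.0054). The same differences on the arrays of ending 11 were 0.39 (adjusted p = 0.74) for Abcb1a and -0.43 (adjusted p = 0.72) for Slc13a4.

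**Figure D2:**
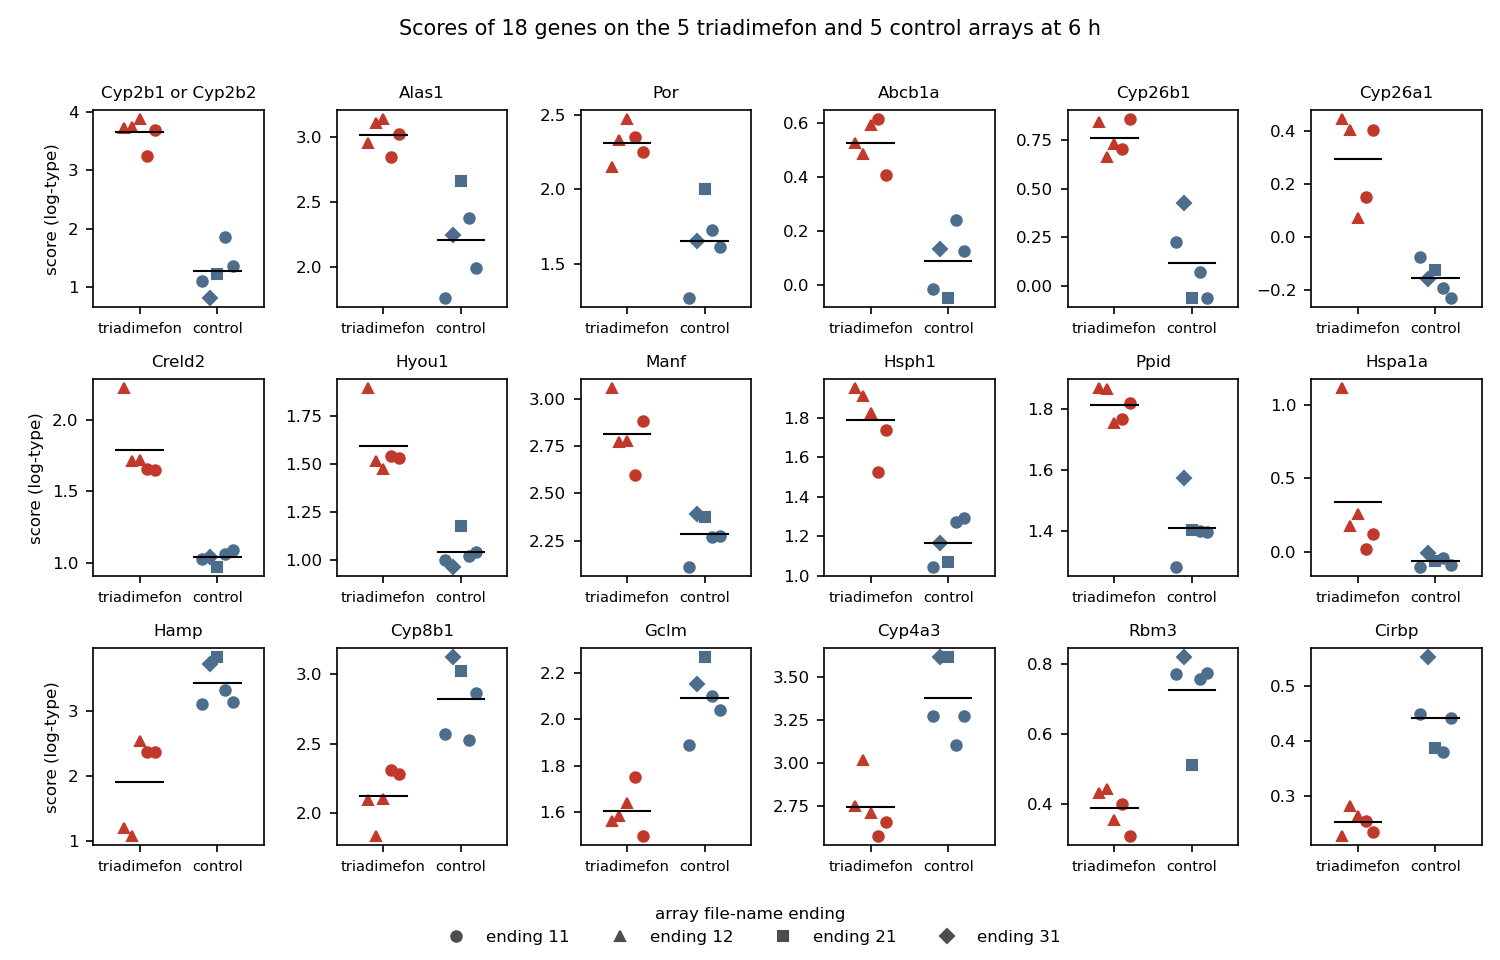
Deposited scores (log-type, base not stated) of 18 genes on each of the 5 triadimefon (red, left) and 5 control (blue, right) arrays at 6 h; the marker gives the ending of the array file name and the line the group mean. The values of the 2 groups do not overlap for any gene shown; Creld2, Hyou1 and Hspa1a have triadimefon array 1 far above the other 4.

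The retinoic acid hydroxylases Cyp26a1 and Cyp26b1 rose, and Aldh1a3, an enzyme that makes retinoic acid, fell. Cyp26a1 and Cyp26b1 clear retinoic acid and are themselves known to be induced by it, while Aldh1a3 oxidises retinal. Cyp26b1 scored 0.84, 0.66, 0.73, 0.70 and 0.86 in triadimefon livers and 0.22, 0.43, -0.063, 0.073 and -0.060 in control livers, without overlap, a difference of 0.64 ± 0.13 (adjusted p = 0.0039). Another probe set of Cyp26b1 differed by 0.11 and was not called. Cyp26a1 scored 0.44, 0.40, 0.072, 0.15 and 0.40 with triadimefon, against -0.074, -0.16, -0.13, -0.19 and -0.23 in controls. These groups did not overlap either, with a difference of 0.45 ± 0.073 (adjusted p = 0.00037), and it was still called on the arrays of ending 11, at 0.44 (adjusted p = 0.014). Aldh1a3 scored 0.54, 0.51, 0.50, 0.48 and 0.46 with triadimefon and 0.57, 0.80, 0.67, 0.65 and 0.67 in controls, and its triadimefon values all lay below, by -0.18 ± 0.031 (adjusted p = 0.0012). All 3 calls held with any 1 array left out. They were the only calls among 39 measured retinoid genes, whose median difference was -0.016. Cyp26b1 differed by 0.70 (adjusted p = 0.23) and Aldh1a3 by -0.16 (adjusted p = 0.26) on the arrays of ending 11.

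Genes that fold, modify and export proteins in the endoplasmic reticulum made up the largest group of calls. Of 86 measured members of that list 13 rose (15.1%) and 0 fell, against 1.01% of all genes rising. No other list had as many measured members. The lists were chosen with earlier results of these data known, so this share and that of the heat shock list are descriptions and not tests. The background is also unlike the list. Of 31042 probe sets 15290 had a mean score under 0, while the list mean was at least 1.40 on each of the 10 arrays. The median difference was 0.12, and 78 members (90.7%) had a positive difference, against 50.6% of all genes. The called members were the chaperone Hyou1, the stress-induced secreted factors Creld2 and Manf, the co-chaperones Sdf2l1 and Dnajb11, and Fkbp11, a prolyl isomerase. With them rose Ero1a and Tmx1 of disulphide formation, Stt3a and Uggt1 of glycosylation and glycan-based folding control, Edem2 of glycoprotein degradation, and Sec23b and Sec24d of the vesicle coat that leaves the compartment. Their differences lay between 0.16 for Uggt1 and 0.75 for Creld2, and 12 of the 13 did not overlap between the groups, as 143 of all 173 called genes did not.

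Creld2 scored 2.22, 1.71, 1.72, 1.66 and 1.65 on triadimefon arrays 1 to 5, against 1.03, 1.04, 0.97, 1.06 and 1.09 on control arrays 1 to 5. The lowest triadimefon value lay well above the highest control value, and array 1 stood alone at the top. The difference was 0.75 ± 0.096 (adjusted p = 7.9e-06), and without triadimefon array 1 it was 0.64 (adjusted p = 6.1e-05). Hyou1, which drives the nucleotide cycle of the main chaperone BiP, scored 1.89, 1.52, 1.48, 1.54 and 1.53 with triadimefon and 1.001, 0.96, 1.18, 1.02 and 1.04 in controls. Again no values overlapped and array 1 was highest, with a difference of 0.55 ± 0.078 (adjusted p = 3.7e-05). Manf scored 3.06, 2.77, 2.78, 2.60 and 2.89 in triadimefon livers and 2.11, 2.39, 2.37, 2.27 and 2.28 in control livers, also without overlap, a difference of 0.54 ± 0.10 (adjusted p = 0.0027). Sdf2l1, a partner of the co-chaperones of BiP, scored 2.45, 2.05, 1.97, 1.87 and 1.98 with triadimefon and 1.64, 1.68, 1.58, 1.60 and 1.66 in controls. Its difference was 0.43 ± 0.11 (adjusted p = 0.029), with 0.29 (adjusted p = 0.92) on the arrays of ending 11, and this call was lost without triadimefon arrays 1 or 2 or control arrays 1, 3 or 4, with a difference between 0.34 and 0.44 in those repeats and an adjusted p of up to 0.18.

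Hspa5, which encodes BiP, scored 3.70, 3.41, 3.53, 3.23 and 3.55 with triadimefon and 2.77, 3.31, 3.34, 2.99 and 3.05 in controls. The groups overlapped, and the difference of 0.39 ± 0.13 (adjusted p = 0.13) passed after quantile normalization, at 0.42 (adjusted p = 5.8e-08). The chaperone Hsp90b1, the HSP90 of this compartment, differed by 0.45 (adjusted p = 0.078) and the disulphide isomerase Pdia4 by 0.36 (adjusted p = 0.061). Of the regulators of the response, Xbp1 differed by 0.18 (adjusted p = 0.67), Atf6 by 0.097 (adjusted p = 0.35) and Ddit3 (CHOP), of its cell death arm, by 0.10 (adjusted p = 0.32). Herpud1, a known target of the response in degradation, differed by -0.063 (adjusted p = 0.92). Among 52 genes of the amino acid and integrated stress response 1 rose, the tryptophanyl-tRNA synthetase Wars1, by 0.14 ± 0.032 (adjusted p = 0.021), with 0.12 (adjusted p = 0.83) on the arrays of ending 11 and 0.078, not called, on its other probe set. That call was lost without triadimefon arrays 1 or 2 or control arrays 1, 3 or 5, with a difference between 0.12 and 0.14 in those repeats and an adjusted p of up to 0.12.

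The mean score of the endoplasmic reticulum list was 1.74, 1.64, 1.65, 1.58 and 1.65 on triadimefon arrays 1 to 5, against 1.40, 1.59, 1.53, 1.49 and 1.51 on control arrays 1 to 5. The groups overlapped only in that triadimefon array 4 (1.575) lay below control array 2 (1.591). Control array 1, the lowest, was also the array with the dimmest bright probe sets, and control array 2, the highest of the controls, was among the brightest. The highest triadimefon value fell on array 1 in 9 of the 13 called genes, and in 2 each on arrays 2 and 5. The number called was 31 after quantile normalization, 0 on the arrays of ending 11, and 6 with ending 12 against the other endings as a covariate. It was 5 without triadimefon array 1 or array 2, 7 without control array 1, 6 without control array 3 and 8 without control array 5. On the arrays of ending 11 Creld2 differed by 0.59 (adjusted p = 0.12), Hyou1 by 0.52 (adjusted p = 0.069) and Manf by 0.52 (adjusted p = 0.46). The part of the file-name ending in these counts was not tested beyond these values.

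The promoters of a few of these genes carry the endoplasmic reticulum stress element, bound by NF-Y at CCAAT and by ATF6 or XBP1 at CCACG, with 9 bases of any kind between. It was searched on both strands of RefSeq windows of 300 bases in rat assembly GRCr8, which run from 250 bases before a gene's start to 50 after it. The element occurred in 21 of 27457 windows (0.0765%), in 8 of the 72 list members with a window (11.1%), and in 1 of the 9 called members with a window. Creld2 is that member. It is printed here with Hspa5 and Hsp90b1, the chaperones that are the classical carriers of the element, each with its CCAAT and CCACG in capitals. The stretches lie at chr7:121789219-121789277 on the plus strand, chr3:38452953-38453011 on the plus strand and chr7:23012327-23012489 on the minus strand, and are written along the gene. In Creld2 the element reads on the other strand, so these appear as CGTGG and ATTGG. Hsp90b1 holds 1 element on each strand.
Creld2: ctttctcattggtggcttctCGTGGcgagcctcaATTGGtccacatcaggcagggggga
Hspa5: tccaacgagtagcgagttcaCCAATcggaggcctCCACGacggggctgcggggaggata
Hsp90b1: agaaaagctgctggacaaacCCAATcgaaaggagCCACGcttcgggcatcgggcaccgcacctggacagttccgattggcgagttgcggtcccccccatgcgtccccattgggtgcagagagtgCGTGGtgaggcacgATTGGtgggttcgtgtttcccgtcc
A match of letters is a description and not evidence of binding.

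Genes of the cytosolic and mitochondrial heat shock list formed the other large group. Of 70 measured members 11 rose (15.7%) and 0 fell, with a median difference of 0.091 and 58 members (82.9%) positive. They were Hsph1, the exchange factor of HSP70, Hspa1a and Hspa13 of the HSP70 family, and the HSP90 partners Stip1, Ppid, Fkbp4, Ahsa1, Chordc1 and Sugt1. The chaperonin subunit Cct3 and the ubiquitin hydrolase Usp14 of the proteasome rose with them. The differences lay between 0.18 for Sugt1 and 0.62 for Hsph1. The groups did not overlap in 8 of the 11, against 143 of all 173 called genes. Hsph1 scored 1.95, 1.91, 1.82, 1.53 and 1.74 in triadimefon livers and 1.04, 1.17, 1.07, 1.27 and 1.29 in control livers. No values overlapped, and the difference was 0.62 ± 0.10 (adjusted p = 0.00047). Ppid, a cyclophilin that docks on HSP90, scored 1.87, 1.87, 1.75, 1.77 and 1.82 with triadimefon and 1.28, 1.57, 1.40, 1.40 and 1.40 in controls. Its groups did not overlap, with a difference of 0.40 ± 0.066 (adjusted p = 0.0004). Stip1, the adaptor that links HSP70 to HSP90, scored 1.63, 1.61, 1.54, 1.39 and 1.41 with triadimefon and 1.08, 1.16, 1.16, 1.15 and 1.22 in controls, a difference of 0.36 ± 0.067 (adjusted p = 0.0024) with no overlap. These 3 calls held with any 1 array left out.

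Hspa1a, the stress-inducible HSP70, has a near-identical copy whose signal cannot be separated from its own. Its scores were 1.11, 0.17, 0.26, 0.022 and 0.13 on triadimefon arrays 1 to 5, against -0.10, -0.004, -0.064, -0.038 and -0.089 on control arrays 1 to 5. Array 1 alone stood high and the other 4 triadimefon values lay just above the controls. The difference was 0.40 ± 0.10 (adjusted p = 0.042), and it was 0.20 (adjusted p = 0.1) without triadimefon array 1 and 0.15 (adjusted p = 0.89) on the arrays of ending 11. The call was also lost without triadimefon array 3 or control arrays 1, 2, 3, 4 or 5, with a difference between 0.39 and 0.42 in those repeats and an adjusted p of up to 0.1. The mean score of the list was 1.19, 1.14, 1.12, 1.05 and 1.10 on triadimefon arrays 1 to 5 and 0.920, 1.08, 0.995, 0.996 and 1.01 on control arrays 1 to 5. Triadimefon array 4 again overlapped control array 2. The highest triadimefon value was on array 1 for 10 of the 11 called genes. The number called was 23 after quantile normalization, 0 on the arrays of ending 11 and 5 with ending 12 as a covariate. It was 5 without triadimefon array 1, 7 without array 2, and 6 without control array 1 or control array 3. On the arrays of ending 11 Hsph1 differed by 0.43 (adjusted p = 0.76), Ppid by 0.43 (adjusted p = 0.18) and Stip1 by 0.25 (adjusted p = 0.84). All 41 measured proteasome subunits had a positive difference, against 50.6% of all genes, with a median of 0.091. None was called, and 9 were after quantile normalization. The subunits were read on the same arrays and are not independent. Their mean score overlapped between the groups, at 1.58 to 1.775 on triadimefon arrays and 1.52 to 1.73 on control arrays.

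**Figure D3:**
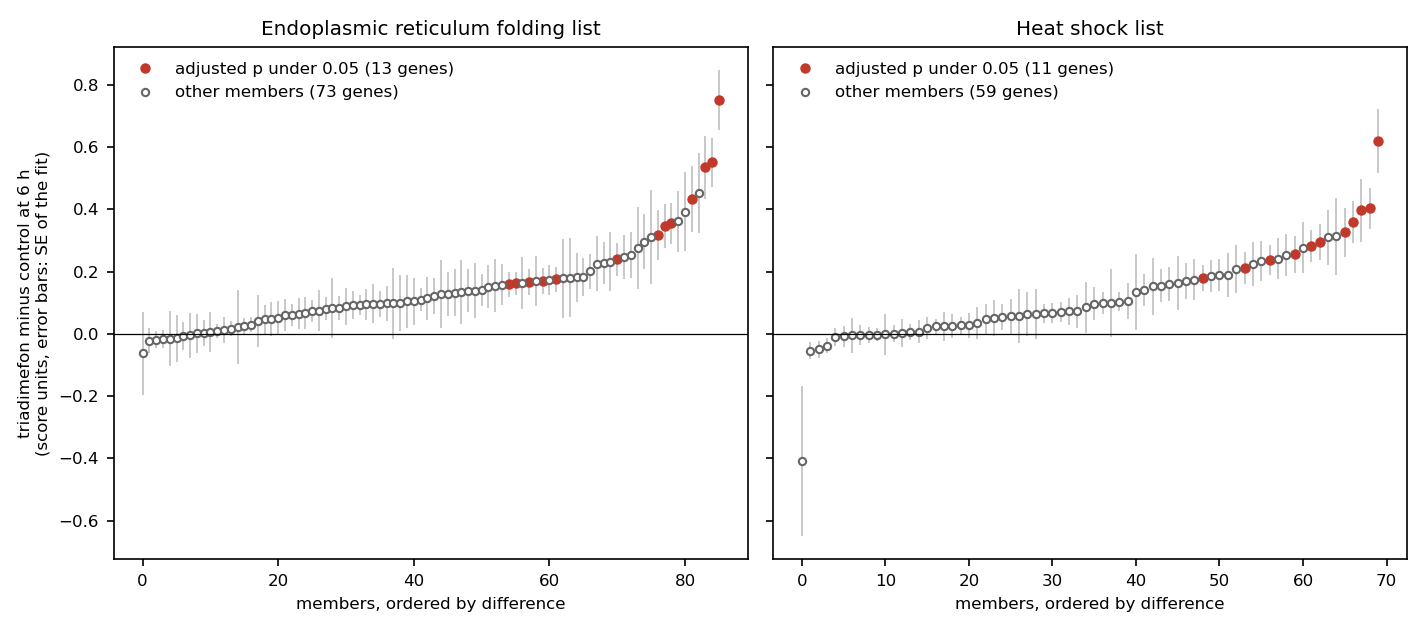
Difference between triadimefon and control livers at 6 h in score units, with the SE of the fit as error bars, for the 86 measured members of the endoplasmic reticulum folding list (left) and the 70 of the heat shock list (right), ordered by difference. Filled red points are the 13 and 11 members with an adjusted p under 0.05; most open points also lie above 0, in 78 of 86 and 58 of 70 members in all.

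Heat shock factor binds repeats of GAA and its reverse complement, here sought as GAANNTTC or TTCNNGAA, each of which reads the same on both strands. At least 1 such match lay in 4573 of the 27457 promoter windows (16.7%), in 22 of the 60 members of the heat shock list with a window (36.7%) and in 4 of the 11 called members (36.4%). The called members with a match before the start were Hsph1, Stip1 and Fkbp4, while that of Chordc1 lay after the start. Hsph1 holds 3 matches, of which 2 share a GAA. The stretches printed here show how the GAA and TTC units, in capitals, lie toward the start of these 3 genes, at chr12:10427243-10427364 on the plus strand, chr4:163398028-163398075 on the minus strand and chr1:213657655-213657682 on the minus strand of GRCr8, written along the gene.
Hsph1: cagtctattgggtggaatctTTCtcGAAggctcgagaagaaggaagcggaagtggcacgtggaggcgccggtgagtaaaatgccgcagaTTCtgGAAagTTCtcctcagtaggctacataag
Fkbp4: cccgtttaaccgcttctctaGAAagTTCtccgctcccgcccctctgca
Stip1: tcccggcagcttctagtaggTTCcaGAA
The match says nothing of which factor was active in these livers.

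The RNA-binding proteins Rbm3 and Cirbp, known to be raised by cold and lowered by heat, both fell. Rbm3 scored 0.43, 0.45, 0.36, 0.40 and 0.31 in triadimefon livers and 0.77, 0.82, 0.51, 0.76 and 0.77 in control livers. The groups did not overlap, with a difference of -0.34 ± 0.054 (adjusted p = 0.00036), and it stayed called on the arrays of ending 11, at -0.41 (adjusted p = 0.0052). Cirbp scored 0.23, 0.28, 0.26, 0.25 and 0.23 with triadimefon and 0.45, 0.55, 0.39, 0.38 and 0.44 in controls, a difference of -0.19 ± 0.031 (adjusted p = 0.00037) without overlap. On the arrays of ending 11 Cirbp differed by -0.18 (adjusted p = 0.18), and its 2 other probe sets, not called, differed by -0.079 and -0.047. Both calls held with any 1 array left out. They were the only calls among 18 cold-inducible and splicing genes, of which 15 had a positive difference, so the list as a whole did not follow them.

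Hamp, which encodes hepcidin, the liver hormone that limits iron export, had the largest fall. It scored 1.19, 1.07, 2.53, 2.36 and 2.37 on triadimefon arrays 1 to 5, against 3.10, 3.71, 3.82, 3.31 and 3.14 on control arrays 1 to 5. All triadimefon values lay below all control values, with arrays 1 and 2 lowest and the other 3 closer to the controls. The difference was -1.51 ± 0.38 (adjusted p = 0.041), and it was -0.82 (adjusted p = 0.97) on the arrays of ending 11, which leave out triadimefon arrays 1, 2 and 3. The call was lost without triadimefon arrays 1 or 2 or any 1 control array, with a difference between -1.59 and -1.30 in those repeats and an adjusted p of up to 0.18. Steap3, a ferrireductase, scored 0.46, 0.44, 0.39, 0.32 and 0.43 with triadimefon and 0.61, 0.66, 0.64, 0.65 and 0.71 in controls and fell by 0.24 (adjusted p = 0.017), without overlap, and differed by -0.28 (adjusted p = 0.54) on the arrays of ending 11. These were the only calls among 35 measured iron genes.

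Lipid and bile acid genes gave single calls. Cyp8b1, the sterol 12-alpha-hydroxylase that sets the share of cholic acid, scored 2.09, 1.84, 2.11, 2.31 and 2.28 in triadimefon livers and 2.57, 3.12, 3.02, 2.53 and 2.86 in control livers. No values overlapped, the difference was -0.70 ± 0.15 (adjusted p = 0.01), and without triadimefon array 2 it was -0.62 (adjusted p = 0.063). Cyp7a1, the rate-limiting enzyme of bile acid synthesis, differed by -0.20 (adjusted p = 0.87), and no other of the 26 measured bile acid genes passed. Among 60 genes of fatty acid oxidation 2 fell, both known PPAR-alpha targets, against 0.211% of all genes. After quantile normalization 11 fell, and 5 fell in a fit of the 10 compared arrays alone with a replicate block. The list median was -0.052, with 15 of 60 positive, but it was 0.021 with the ending as a covariate and 0.008 on the arrays of ending 11. Cyp4a3, a fatty acid omega-hydroxylase, scored 2.75, 3.01, 2.71, 2.58 and 2.66 with triadimefon and 3.27, 3.61, 3.61, 3.10 and 3.27 in controls, a difference of -0.63 ± 0.15 (adjusted p = 0.022). Ehhadh, the peroxisomal bifunctional enzyme, scored 2.15, 2.12, 2.19, 2.31 and 2.06 with triadimefon and 2.39, 2.88, 2.62, 2.47 and 2.67 in controls, a difference of -0.44 ± 0.11 (adjusted p = 0.026). Neither overlapped between the groups. The call of Cyp4a3 was lost without triadimefon arrays 1 or 5 or control arrays 2 or 3, with a difference between -0.64 and -0.57 in those repeats and an adjusted p of up to 0.085. That of Ehhadh was lost without triadimefon arrays 1, 2 or 5 or control arrays 2, 3 or 5, with a difference between -0.44 and -0.37 in those repeats and an adjusted p of up to 0.087.

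Insig2, which holds the sterol sensor in the endoplasmic reticulum, scored 2.97, 2.95, 3.05, 2.56 and 3.07 with triadimefon and 2.38, 2.54, 2.29, 2.26 and 2.35 in controls. All triadimefon values lay above all control values, array 4 lowest among them, and the difference was 0.56 ± 0.13 (adjusted p = 0.022). This call was lost without triadimefon arrays 1, 2, 3 or 5 or control arrays 1, 3 or 4, with a difference between 0.52 and 0.56 in those repeats and an adjusted p of up to 0.074. Besides Por, which serves this pathway too, no other member of the 27 sterol genes was called. Of the 27, 23 had a positive difference, against 50.6% of all genes, and the median was 0.13. The mean score of the list overlapped between the groups, at 1.57 to 1.80 on triadimefon arrays and 1.38 to 1.74 on control arrays. Cyp51, the mammalian form of the enzyme that triazoles block in fungi, differed by 0.10 (adjusted p = 0.8). On the arrays of ending 11 the differences were -0.36 (adjusted p = 0.97) for Cyp8b1, -0.60 (adjusted p = 0.67) for Cyp4a3, -0.33 (adjusted p = 0.91) for Ehhadh and 0.49 (adjusted p = 0.85) for Insig2.

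Gclm, the modifier subunit of the enzyme that begins glutathione synthesis, was the one call among 52 NRF2 targets and glutathione genes. It scored 1.56, 1.58, 1.64, 1.75 and 1.497 in triadimefon livers and 1.89, 2.15, 2.27, 2.10 and 2.04 in control livers. The groups lay apart, with a difference of -0.48 ± 0.067 (adjusted p = 3e-05), and the call held with any 1 array left out. Gadd45b, an early growth-arrest gene that activators of CAR raise in mouse liver, scored 0.51, 0.47, 0.63, 0.48 and 0.37 with triadimefon and -0.026, -0.007, 0.16, -0.025 and -0.023 in controls. It was the one call among 57 immediate early genes, with a difference of 0.48 ± 0.11 (adjusted p = 0.015) that also held with any 1 array left out. Control array 3 stood above the other controls but below every triadimefon array. Gclm differed by -0.39 (adjusted p = 0.26) and Gadd45b by 0.45 (adjusted p = 0.75) on the arrays of ending 11. The cyclin Ccnd1 and the proliferation marker Mki67 differed by -0.091 (adjusted p = 0.78) and 0.027 (adjusted p = 0.96), and none of 66 genes of DNA replication and mitosis passed.

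Cux2, a transcription factor that in rodents is expressed in female liver, scored 0.24, 0.47, 0.46, 0.24 and 0.25 in triadimefon livers and -0.080, 0.14, -0.13, -0.21 and -0.22 in control livers. The difference was 0.43 ± 0.073 (adjusted p = 0.00066) without overlap, and 0.42 (adjusted p = 0.015) on the arrays of ending 11. A1bg, a plasma protein whose gene responds to growth hormone in rat liver, scored 0.65, 1.70, 0.35, 0.13 and 0.35 with triadimefon and -0.051, 0.084, -0.041, -0.066 and 0.10 in controls. Array 2 stood far above the other triadimefon arrays. The difference was 0.63 ± 0.15 (adjusted p = 0.022), and it was 0.37 (adjusted p = 0.076) without triadimefon array 2. The call was also lost without triadimefon array 1 or control arrays 1, 3 or 4, with a difference between 0.61 and 0.63 in those repeats and an adjusted p of up to 0.066. A1bg differed by 0.25 (adjusted p = 0.9) on the arrays of ending 11. These were the 2 calls among 32 genes of the growth hormone axis. Aass, the first enzyme of lysine breakdown, was the only call of 51 urea cycle and amino acid genes, at 0.51 ± 0.11 (adjusted p = 0.0082) with overlapping groups, and it was 0.46 (adjusted p = 0.051) without triadimefon array 1 and 0.43 (adjusted p = 0.76) on the arrays of ending 11.

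Among the 12 highest and 12 lowest non-overlapping calls, 6 genes belonged to no list. Tsku, a secreted leucine-rich protein of liver, rose by 0.63 ± 0.15 (adjusted p = 0.025), a call lost without triadimefon arrays 1, 2 or 5 or control arrays 1 or 5, with a difference between 0.51 and 0.65 in those repeats and an adjusted p of up to 0.13. Pgpep1, a peptidase that removes pyroglutamate, scored 2.47, 2.37, 2.21, 2.16 and 2.41 in triadimefon livers and 1.87, 2.10, 1.61, 1.66 and 1.72 in control livers, a difference of 0.53 ± 0.11 (adjusted p = 0.0059). Adamts7, a secreted metalloprotease, scored 0.53, 0.48, 0.56, 0.60 and 0.54 with triadimefon and 0.83, 0.77, 0.71, 0.80 and 0.86 in controls, a difference of -0.25 ± 0.038 (adjusted p = 9.8e-05). The calls of Pgpep1 and Adamts7 held with any 1 array left out. Itga7, an integrin subunit, differed by -0.24 ± 0.051 (adjusted p = 0.011), but its 2 other probe sets, not called, differed by -0.21 and 0.039. Abhd6, a lipase that breaks down monoacylglycerols, differed by -0.20 ± 0.051 (adjusted p = 0.04), and another of its probe sets by 0.058. Its call was lost without triadimefon arrays 1, 2, 3 or 5 or control arrays 2, 3 or 4, with a difference between -0.21 and -0.17 in those repeats and an adjusted p of up to 0.12. Olr59, listed as an olfactory receptor, differed by -0.44 ± 0.11 (adjusted p = 0.043), a call lost without triadimefon arrays 1, 2, 3 or 5 or control arrays 1, 2, 4 or 5, with a difference between -0.47 and -0.39 in those repeats and an adjusted p of up to 0.17. On the arrays of ending 11 the differences were 0.83 (adjusted p = 0.29) for Tsku, 0.54 (adjusted p = 0.46) for Pgpep1, -0.26 (adjusted p = 0.058) for Adamts7, -0.25 (adjusted p = 0.5) for Itga7, -0.13 (adjusted p = 0.96) for Abhd6 and -0.37 (adjusted p = 0.84) for Olr59.

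Of the 29 lists of functions, 14 held no called gene at this time. Besides those already given, they covered lipoproteins, fatty acid synthesis, the circadian clock, the glucocorticoid and fasting response, glucose and glycogen, steroid and thyroid hormone handling, nuclear receptors and tubulins. Of 53 measured plasma and acute phase proteins 7 had a positive difference and none was called, with a median of -0.061. That median was -0.002 after quantile normalization and turned to 0.18 with the ending as a covariate and 0.13 on the arrays of ending 11. A p that missed the threshold does not show that these genes stayed level.

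Myclobutanil, another triazole fungicide, was given to rats of the same time, 5 arrays, at its own, higher dose, so a difference between the compounds is one between these treatments. Against the same control arrays 45 genes rose (0.317%) and 21 fell (0.148%) with myclobutanil. Directly between the compounds, triadimefon livers were higher than myclobutanil livers in 36 genes (0.253%) and lower in 8 (0.0563%). The CYP2B probe set scored 3.73, 3.74, 3.87, 3.25 and 3.68 in triadimefon livers and 3.10, 3.85, 3.69, 4.02 and 3.91 in myclobutanil livers, which overlapped. Its difference was -0.062 (adjusted p = 0.99) with a 95% interval of -0.49 to 0.36. Alas1 differed by -0.13 (adjusted p = 0.96), Por by -0.038 (adjusted p = 0.99), Cyp26b1 by -0.050 (adjusted p = 0.99), Abcb1a by -0.30 (adjusted p = 0.23) and Hamp by 0.44 (adjusted p = 0.92).

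The heat shock list held more genes that differed between the compounds than any other list. Of its 70 members 11 were higher with triadimefon than with myclobutanil (15.7%), and 0 lower. Hsph1 scored 1.95, 1.91, 1.82, 1.53 and 1.74 in triadimefon livers and 1.12, 1.15, 1.12, 1.16 and 1.09 in myclobutanil livers, without overlap, and differed by 0.66 (adjusted p = 0.00053). Stip1 differed by 0.43 (adjusted p = 0.00053), Ppid by 0.37 (adjusted p = 0.0035), Fkbp4 by 0.42 (adjusted p = 0.0091) and Chordc1 by 0.33 (adjusted p = 0.00074). Hspa1a did not follow them, at -0.031 (adjusted p = 0.99). It was also higher with myclobutanil than in control livers, by 0.428 (adjusted p = 0.039). Its myclobutanil scores lay between 0.215 and 0.504, and the highest control score was -0.004. Of the endoplasmic reticulum list 3 of 86 were higher with triadimefon, Creld2 by 0.69 (adjusted p = 0.0002), Hyou1 by 0.43 (adjusted p = 0.0041) and Dnajb11 by 0.32 (adjusted p = 0.02). Myclobutanil livers scored 1.002, 1.18, 1.11, 0.999 and 1.23 for Creld2, all of them below every triadimefon array. Rbm3, Cirbp and Aldh1a3 were lower with triadimefon, by -0.37 (adjusted p = 0.0002), -0.22 (adjusted p = 0.0002) and -0.16 (adjusted p = 0.0091).

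Of the 27 sterol genes 4 were higher with triadimefon than with myclobutanil, all of them enzymes of cholesterol synthesis. Mvd differed by 0.40 (adjusted p = 0.003), Idi1 by 0.62 (adjusted p = 0.038), Sqle by 0.50 (adjusted p = 0.022) and Msmo1 by 0.54 (adjusted p = 0.022). None of the 4 was called between triadimefon and control livers, where they differed by 0.21 (adjusted p = 0.16), 0.32 (adjusted p = 0.38), 0.26 (adjusted p = 0.31) and 0.21 (adjusted p = 0.51). The median of the 27 genes was 0.22 between the compounds. Against control it was 0.13 for triadimefon and -0.10 for myclobutanil, so both sides entered the difference. Hmox1, the enzyme of haem breakdown, scored 0.86, 1.05, 0.93, 0.77 and 0.88 with triadimefon and 1.49, 1.65, 1.19, 1.36 and 1.12 with myclobutanil, without overlap, and differed by -0.46 (adjusted p = 0.0002).

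Both compounds have arrays of both endings, so these differences could also be taken within an ending. On the 3 triadimefon and 3 myclobutanil arrays of ending 12, 18 genes were higher and 1 lower with triadimefon, and 9 heat shock and 0 endoplasmic reticulum genes were higher. On the 2 and 2 arrays of ending 11, 1 was higher and 4 lower, with 0 of either list. Hsph1 differed by 0.77 (adjusted p = 0.00075) within ending 12 and 0.50 (adjusted p = 0.52) within ending 11. Creld2 differed by 0.77 (adjusted p = 0.082) within ending 12 and 0.56 (adjusted p = 0.25) within ending 11. For Rbm3 the values were -0.29 (adjusted p = 0.11) and -0.50 (adjusted p = 0.0017), and for Hmox1 -0.28 (adjusted p = 0.15) and -0.75 (adjusted p = 3e-05). With the ending as a covariate 35 genes were higher and 9 lower. The counts were 10 and 4 without triadimefon array 1, 16 and 5 without triadimefon array 2, 19 higher without myclobutanil array 1, 21 higher without myclobutanil array 3 and 4 lower without myclobutanil array 2.

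**Figure D4:**
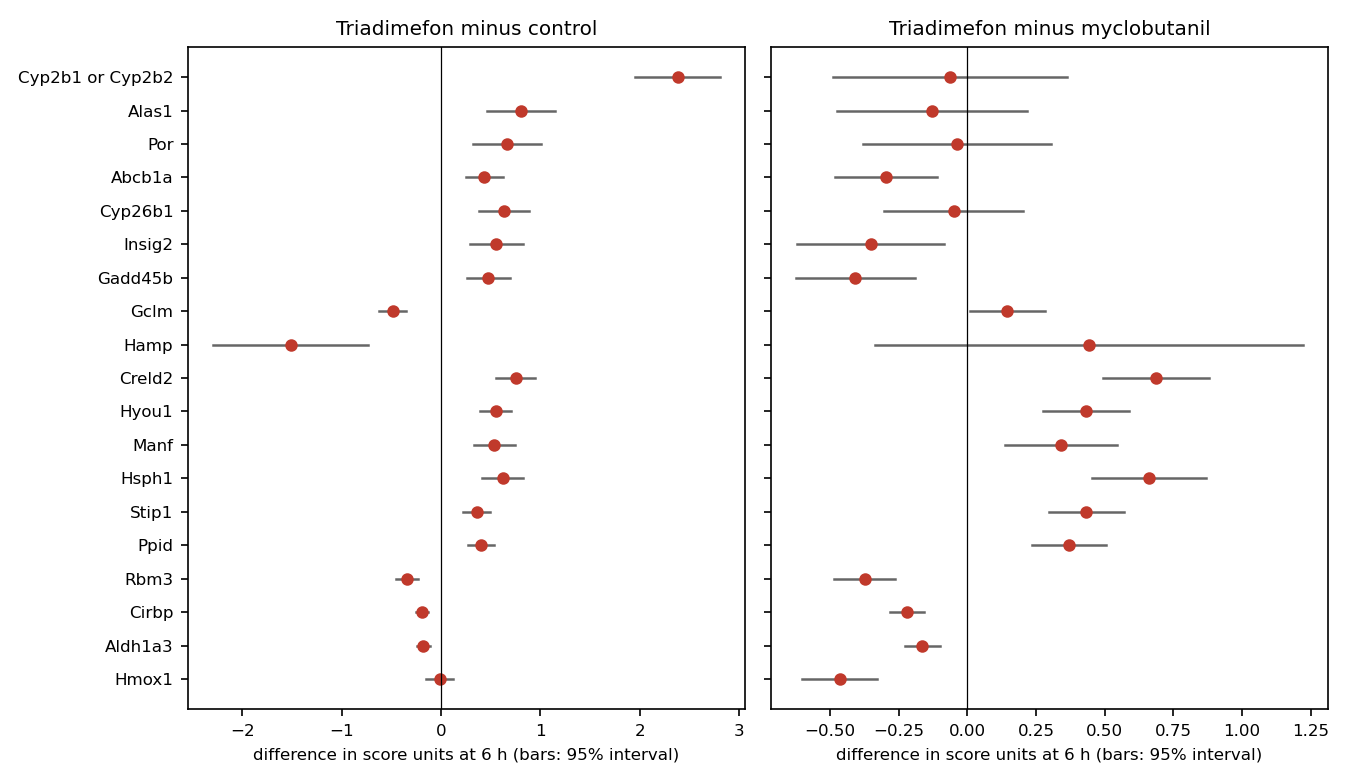
Differences of 19 genes at 6 h in score units, triadimefon minus control (left) and triadimefon minus myclobutanil (right), with 95% intervals of the fit as bars. The CYP2B probe set, at 2.38 against control, lies at -0.062 against myclobutanil, while Creld2, Hsph1, Stip1 and Ppid lie above 0 on both sides. Hmox1 lies at -0.013 against control and at -0.46 against myclobutanil. The triadimefon arrays are the same on both sides.

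Several folding genes that rose at 6 h no longer differed in that direction at 24 h. Of the 14217 genes, 654 (4.6%) had a difference from control at 24 h that itself differed from that at 6 h, among them 73 of the 173 genes called at 6 h, 65 of which rose at 6 h. Those genes were called on the same 6 h values that enter this contrast, which in part fixes its direction and count. Creld2 differed from its controls by 0.75 (adjusted p = 7.9e-06) at 6 h, -0.25 (adjusted p = 0.098) at 24 h and -0.24 (adjusted p = 0.12) at 14 days. The change between 6 h and 24 h was -1.004 (adjusted p = 5e-05). It was -0.77 (adjusted p = 0.00013) for Hyou1, -0.77 (adjusted p = 0.0018) for Manf and -0.49 (adjusted p = 0.0021) for Ppid, while Hsph1 stayed positive at 24 h, at 0.32 (adjusted p = 0.048), with a change of -0.30 (adjusted p = 0.26). At 24 h, when 369 genes rose (2.6%) and 1182 fell (8.31%) in all, 1 member of the endoplasmic reticulum list was higher and 24 lower, with a median of -0.15.

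The CYP2B difference, by contrast, was 2.56 (adjusted p = 2e-10) at 24 h and 2.52 (adjusted p = 7.9e-11) at 14 days, with a change of 0.18 (adjusted p = 0.8) between 6 h and 24 h. Abcb1a was at 0.78 (adjusted p = 4e-07) and 0.58 (adjusted p = 9.5e-05), and Alas1 at 1.11 (adjusted p = 4.8e-05) and 0.27 (adjusted p = 0.34). Cyp3a23-3a1 was called at both later times, at 0.71 (adjusted p = 0.0017) and 0.80 (adjusted p = 0.0007). Cyp4a3, which fell at 6 h, was higher at 24 h by 0.55 (adjusted p = 0.016), and the change was 1.19 (adjusted p = 0.0013). Hamp was at 0.11 (adjusted p = 0.9) at 24 h, with a change of 1.62 (adjusted p = 0.092). Gclm was at -0.090 (adjusted p = 0.46) at 24 h and higher by 0.32 (adjusted p = 0.0028) at 14 days. Rbm3 was lower at 24 h, at -0.17 (adjusted p = 0.047), and higher at 14 days, at 0.31 (adjusted p = 0.00031). Cirbp was at -0.071 (adjusted p = 0.15) at 24 h and higher by 0.14 (adjusted p = 0.0051) at 14 days. Every triadimefon and control array of 24 h ends in 11, so the time and the ending cannot be fully told apart. The 654 genes became 302 without control array 2 of 24 h and 990 without its array 4. They became 364 without triadimefon array 1 of 24 h, 349 and 405 without triadimefon arrays 1 and 2 of 6 h, and 362 without control array 3 of 6 h.

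**Figure D5:**
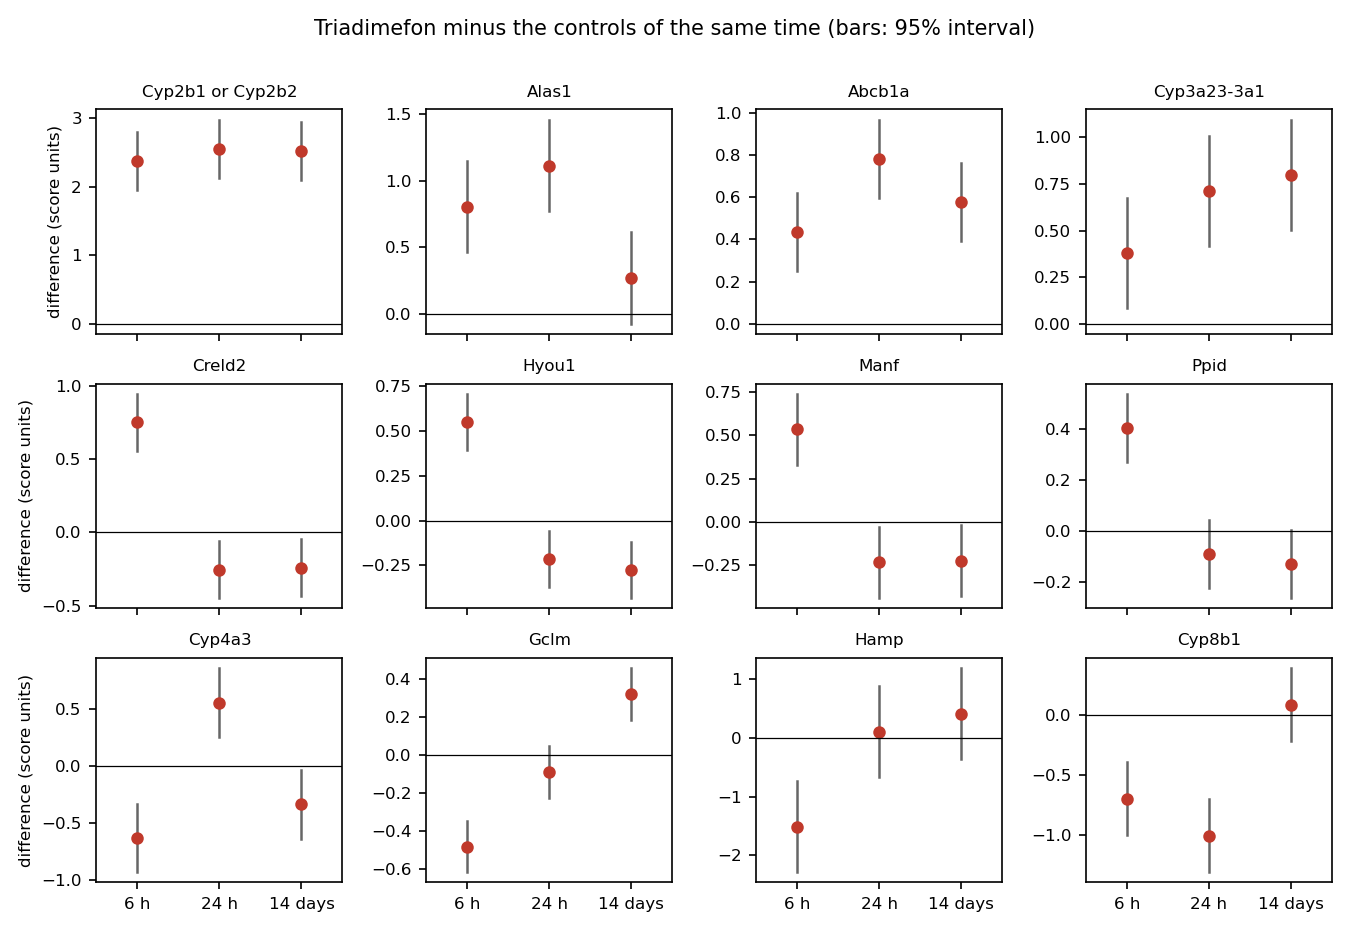
Difference of triadimefon livers from the controls of the same time at 6 h, 24 h and 14 days, in score units with 95% intervals as bars, for 12 genes. The CYP2B probe set lies between 2.38 and 2.56 at all 3 times, Creld2, Hyou1 and Manf lie above 0 at 6 h only, and Cyp4a3 is below 0 at 6 h and above it at 24 h.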

How the data were processed

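Liver RNA was measured on 45 arrays, and 10 of them, 5 triadimefon and 5 control arrays of 6 h, enter the main comparison. The authors deposited 1 score per probe set and array. The labels and file headers used here do not state how it was summarised, normalized or logged, so the scores were used as deposited and not as log2 values. They run from -0.98 to 5.69 with array medians between -0.011 and 0.033. Of 31099 probe sets 57 Affymetrix controls were left out, and 31042 were tested, of which 20826 have 1 gene, 436 several and 9780 none in the array's annotation. Each of 14217 genes was read from its probe set of highest mean over all arrays. Probe sets low on the scale sit near the background, and 15290 had a mean score under 0.

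Tests used limma 3.58.1 in R 4.3.3 with 1 mean per group over the 45 arrays and Benjamini-Hochberg adjustment over all probe sets. Errors after ± are standard errors of that fit and intervals are 95%. The number of arrays limits the precision. The fit was tested on simulated data. Replicate numbers of the titles did not pair the samples, since the correlations of same-numbered triadimefon and control arrays were -0.19, -0.013, 0.19, 0.23 and -0.045. Tables were handled in Python 3.11.15.

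The members, 37 gene lists (29 of functions, 8 of cell types) and tests were chosen with earlier results of these data known. Named are the 12 highest and 12 lowest differences among called genes whose groups do not overlap, up to 4 called members of each list, and a fixed panel of 32 entries, of which 31 were matched. Other called list members and a few uncalled ones were named after their values were seen, and so were the genes compared only with myclobutanil. The alternatives were quantile normalization, equal medians, probe sets above the median level, fewer arrays in the fit, a variance trend, array weights, a replicate block, the file-name ending, stricter thresholds and each array left out in turn. Those that use ending 12 alone, or that change the compound and time comparisons or 2 choices together, were added after seeing the data. Promoters came from RefSeq's GRCr8 windows.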

Additional observations from a re-analysis of the deposited data

Results flagged for a closer look

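Among 100 sets of 5 arrays of the named genes, 8 held an array far from its 4 neighbours by Dixon's test, with a gap of more than 0.71 of the range, and chance gives about 1 in 20. Of these 8, 4 were triadimefon arrays of ending 12. On triadimefon array 1, Creld2 scored 2.22 with the others between 1.65 and 1.72, Hyou1 1.89 with the others between 1.48 and 1.54, and Hspa1a 1.11 with the others between 0.022 and 0.26. On triadimefon array 2, Ccnd1 scored 0.96 with the others between 1.30 and 1.43. On triadimefon array 4, of ending 11, Insig2 scored 2.56 with the others between 2.95 and 3.07. Control array 3, the one of ending 21, scored 0.16 for Gadd45b with the others between -0.026 and -0.007, and 0.51 for Rbm3 with the others between 0.76 and 0.82. Control array 2, the one of ending 31, scored 0.36 for Nr1i3 with the others between 0.59 and 0.68. The part of the ending in these values was not tested.

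Of the 37 called named genes, 13 had a triadimefon effect at 24 h that differed from the effect at 6 h, the difference of the 2 effects being tested in the fit. These genes were called on the 6 h values that enter it. It was lower at 24 h for Creld2 by -1.004 (adjusted p = 5e-05), A1bg by -0.75 (adjusted p = 0.039), Hyou1 by -0.77 (adjusted p = 0.00013), Manf by -0.77 (adjusted p = 0.0018) and Pgpep1 by -0.65 (adjusted p = 0.013). The same held for Slc25a38 by -0.16 (adjusted p = 0.047), Wars1 by -0.17 (adjusted p = 0.029), Ppid by -0.49 (adjusted p = 0.0021) and Cux2 by -0.49 (adjusted p = 0.0058). It was higher at 24 h for Cyp4a3 by 1.19 (adjusted p = 0.0013), Gclm by 0.39 (adjusted p = 0.016), Ehhadh by 0.51 (adjusted p = 0.05) and Aldh1a3 by 0.15 (adjusted p = 0.045), 4 genes that fell at 6 h.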

How the results depend on the processing

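Quantile normalization gave 530 probe sets higher and 298 lower with triadimefon at 6 h, 31 endoplasmic reticulum and 23 heat shock genes, and 110 genes higher and 45 lower than with myclobutanil. Array weights gave 385 and 117 probe sets, with 20 and 21 genes of the lists. The ending as a covariate, which also absorbs control arrays 2 and 3, gave 28 and 7 probe sets and 3 and 1 list genes. Ending 12 alone as a covariate gave 87 and 23 probe sets and 6 and 5 list genes, and the arrays of ending 11 gave 7 and 2, with 0 and 0. Quantile normalization gave 108 higher with the ending as a covariate, and 62 and 28 on the arrays of ending 11, with 8 and 5 list genes. An adjusted p under 0.01 left 94 and 19 probe sets and 5 and 6 list genes. A difference of at least 0.585 score units left 14 and 3, with 1 and 1. That cut is the log2 of 1.5, but it is not a fold here, since the base of the scores is not stated. The 10 compared arrays fitted alone gave 167 and 40 probe sets and 15 and 10 list genes, and 31 of 37 named genes kept their call. A replicate block, in which the replicate numbers are paired, was added to that fit of 10 arrays. It gave 79 and 17 probe sets and 3 and 5 list genes, and 21 of 37 named genes kept their call. The replicate numbers were not found to pair the samples. Against myclobutanil, 1 gene was higher and 4 lower on ending 11, and 18 and 1 on ending 12.

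With each array left out in turn, 98 to 324 probe sets were higher and 27 to 67 lower, with 5 to 15 endoplasmic reticulum and 5 to 13 heat shock genes. Against myclobutanil 10 to 45 genes were higher and 4 to 10 lower, and 302 to 990 genes had an effect at 24 h unlike that at 6 h. Of the 37 named calls, 10 held with the ending as a covariate, 18 with ending 12 as a covariate and 4 on the arrays of ending 11. No sign was reversed. On the arrays of ending 11 only Slc25a38 and Aass could have reversed, since the groups of the other named calls do not overlap. Other probe sets reversed the sign of Itga7, at 0.039, and Abhd6, at 0.058. The cause of these changes was not tested, except that leaving out arrays shrinks the sample and that stricter thresholds admit less. The 3 triadimefon arrays of ending 12 have no control of 6 h, which limits the counts against control. Low scores near the background limit the genes of low level, such as Hspa1a and Cyp26a1.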

Other observations

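Of the 173 called genes 127 were in no list. Those named here were picked from them after their values were seen, each kept its call with any 1 array left out, and they stand as single calls and not as groups. Slc35b1, which carries ATP into the endoplasmic reticulum, rose by 0.41 (adjusted p = 3e-05), and Scfd1, of vesicle fusion at the Golgi, by 0.34 (adjusted p = 0.00027). Rint1, of the tether for vesicles that return from the Golgi, rose by 0.22 (adjusted p = 0.0004). Nus1, of dolichol synthesis, rose by 0.32 (adjusted p = 0.0004), and Gmppb, which makes GDP-mannose, by 0.30 (adjusted p = 1.5e-06). The mannosyltransferase Alg12 rose by 0.18 (adjusted p = 0.0039) and the sialic acid synthase Nans by 0.27 (adjusted p = 0.00013).

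Odc1, of polyamine synthesis, rose by 0.27 (adjusted p = 0.0048), the spermidine synthase Srm by 0.25 (adjusted p = 0.002) and the ribosome biogenesis factor Bop1 by 0.16 (adjusted p = 0.00072). The ADP-ribosyl transferase Parp1 rose by 0.25 (adjusted p = 0.0061) and Parp14 by 0.28 (adjusted p = 0.0024). Amigo3, a membrane adhesion protein, rose by 0.28 (adjusted p = 1.8e-06), with scores of 0.53, 0.40, 0.34, 0.24 and 0.34 in triadimefon livers and 0.073, 0.088, 0.14, 0.076 and 0.063 in control livers. Ddb2, a p53 target of DNA repair, was lower by -0.13 (adjusted p = 0.0011). The triadimefon and control values of these genes did not overlap. On the arrays of ending 11, Slc35b1 differed by 0.40 and Gmppb by 0.25, and values there are not given for the others.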
